A study of Mus musculus with 3 samples.

Results

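Cytosolic ribosomal protein genes encode the proteins that, with ribosomal RNAs, make up the ribosome of the cytoplasm. They were picked by symbol: a probe set (the group of short array probes that reads 1 transcript) had to be annotated to exactly 1 gene named Rpl or Rps with a number, or to Rpsa, Rplp0, Rplp1 or Rplp2. Kinases of the Rps6k family, Rps19bp1 and pseudogenes were left out. The rule gave 105 probe sets of 49 genes, among 18193 genes with a probe set of their own on the array, and each gene was read from its probe set with the highest mean. Of the 49, 26 belong to the large subunit and 23 to the small subunit. Genes whose log2 values averaged 5 or more were tested, which 46 of the 49 and 8456 of all genes did.

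RNA came from the dorsal skin of female BALB/cA mice aged 4 days, and 1 array was run per sample. The wild type (uncv +/+) is 1 array, and the uncv null (uncv -/-) is 2 arrays, uncv null 1 and uncv null 2, called null 1 and null 2 from here on. All were sisters from heterozygous (uncv +/-) parents, and the null animals carry the mutation in every tissue. Uncovered (uncv) is a spontaneous hair loss mutation later mapped to Rhbdf2, the gene of the rhomboid-like protein iRhom2, and no deletion, transgene or treatment is described in the wild type. Nothing in the labels gives the litters. With 1 wild type array, the spread among wild type animals could not be estimated. The p-values here rest on the spread between the 2 uncv null arrays, moderated over all tested genes.

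In mammals a ribosome holds a single copy of most of these proteins, and a cell makes both subunits in matched amounts. Their messenger RNAs are among the most abundant of any cell and typically begin with a run of C and T bases right at the start of transcription, the 5′ terminal oligopyrimidine (TOP) tract. Through this tract the growth-controlling kinase mTOR and the protein Larp1 adjust translation of the whole family together, largely without a change in the amount of message. In mouse skin the family is known from dark skin and belly spot mutants, in which loss of a gene copy activates p53 and alters pigmentation.

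The bases around the annotated start of transcription are shown for the members with the largest differences described further on, and for Rpl22 and Rps27, the partners of 2 of them, to show where the runs of C and T lie around their annotated starts. Each line gives 15 bases before and 15 bases from the RefSeq start, 5′ to 3′ on the gene's own strand, and capitals mark the longest run of C and T; base 16 of each line is the annotated start. The build is GRCm38.p6, and the positions are, in the same order, chr7:109519180-109519209 (+), chr16:10170213-10170242 (+), chr9:120571502-120571531 (+), chr9:120127751-120127780 (+), chr5:115559452-115559481 (+), chr7:3704026-3704055 (+), chr9:66946071-66946100 (+), chr3:90213634-90213663 (-), chr3:28805493-28805522 (+) and chr4:152325711-152325740 (+). Rps27l and Rpl22 have 2 starts each in the RefSeq table, and the one it lists first is shown; at the other start the longest run is 4 bases for Rps27l and 5 for Rpl22.
Rpl27a: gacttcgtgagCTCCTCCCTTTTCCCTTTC
Rpl39l: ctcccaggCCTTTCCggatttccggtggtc
Rpl14: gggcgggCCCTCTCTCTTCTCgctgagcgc
Rpsa: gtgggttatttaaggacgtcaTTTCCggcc
Rplp0: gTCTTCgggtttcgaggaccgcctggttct
Rps9: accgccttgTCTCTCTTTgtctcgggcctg
Rps27l: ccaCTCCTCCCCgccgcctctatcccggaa
Rps27: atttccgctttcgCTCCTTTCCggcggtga
Rpl22l1: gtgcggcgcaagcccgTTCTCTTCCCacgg
Rpl22: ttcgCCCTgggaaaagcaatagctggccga

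A start row was found for 43 of the 49 genes, with 51 starts in all. A run of at least 7 bases of C or T lay in the 30-base window of 24 of those 51 starts (47.1%), against 18.6% of all 32851 starts in the table and 18.2% of the 8823 starts of tested genes. On the opposite strand, where it reads as a run of A or G, it lay in 3 member starts (5.88%), against 20.3% of all starts. A run of that length held the annotated start itself in 12 of the 51 (23.5%), against 5.28% of all starts. The run was 19 bases long at Rpl27a and 14 at Rpl14, and only 5 at Rpsa and Rplp0 and 4 at the printed start of Rpl22. Of the 10 printed, the marked run held base 16 in Rpl27a, Rpl14, Rps9 and Rps27, began at base 17 in Rpl22l1 and at base 22 in Rpsa, and ended before the start in Rpl39l, Rps27l, Rpl22 and Rplp0. The 23 tested genes with such a run anywhere in the window had a median difference from wild type of -0.057 (-0.056 in null 1 and -0.016 in null 2), and the 17 tested genes whose listed starts had none were at -0.014 (-0.013 and -0.0023). The run is a match of letters in an annotated window and was not measured on these arrays.

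Markers of skin were present on every array: Krt14, a keratin of the basal epidermis, was at 11.49 in wild type, 11.58 in null 1 and 12.03 in null 2. The gene of the mutation, Rhbdf2, was at 5.83, 6.29 and 6.49 in the same order, and whether its probe set covers the mutated part was not tested. The arrays differed in their control probe sets. For 18S ribosomal RNA, the mean of the 3 control probe sets was 3.59, 7.93 and 4.26. The excess of 3′ over 5′ signal in the spiked-in poly-A RNAs averaged 1.31, 2.01 and 1.28 over 8 pairs of probe sets, and that of Actb was 0.66, 1.23 and 0.79. So null 1 stood apart in its 18S signal and in the 3′ excess of the poly-A spike-ins and Actb. It did not in the 3′ excess of the hybridisation spike-ins, 0.53, 0.47 and 0.46 over 8 pairs, whose mean level was lowest in wild type (8.01, 8.71 and 8.44 over 18 probe sets). Values of the 2 null arrays are therefore given apart. Because RNA of whole skin was measured, fewer cells of a type and less RNA per cell cannot be told apart.

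The ribosomal protein genes lay close to wild type in both uncv null arrays. Their median difference was -0.033 on the log2 scale (-0.033 in null 1 and -0.015 in null 2), beside 0.036 for all 8456 tested genes (0.025 and 0.066). Of the 46 tested, 42 had a mean difference within 0.25 log2 units of wild type (91.3%), against 65.9% of all tested genes, and 32 were within 0.1 (69.6% against 31.3%). The median size of the mean difference, whatever its sign, was 0.062 for the ribosomal protein genes and 0.17 for all tested genes. Rpl27a, Rpl39l, Rpl14 and Rps9 were the exceptions beyond 0.25.

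No member passed limma with Benjamini-Hochberg adjustment over all tested genes (0 of 46), where 0% of the 8456 genes did. At an unadjusted p under 0.05 the count was also 0 of 46, beside 4.56% of all genes. A lack of calls with 3 arrays does not show equal levels. The smallest limma p among the members was 0.055, for Rpl39l, and the adjusted p was 0.99969 for all 46. At least 2-fold from wild type in both null arrays were 0 members, beside 0.52% of all genes. Without regard to size, 9 members lay above wild type in both null arrays (19.6%, against 38.8% of all genes), 18 below in both (39.1%, against 26.4%) and 19 on different sides. This split moved with the scaling: with each array centred on its median it was 4 above and 28 below, and with cyclic loess 13 above and 11 below. The gap between the 2 null arrays was larger than the mean difference from wild type in 30 of the 46 (65.2%), and in 57.5% of all tested genes.

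**Figure D1:**
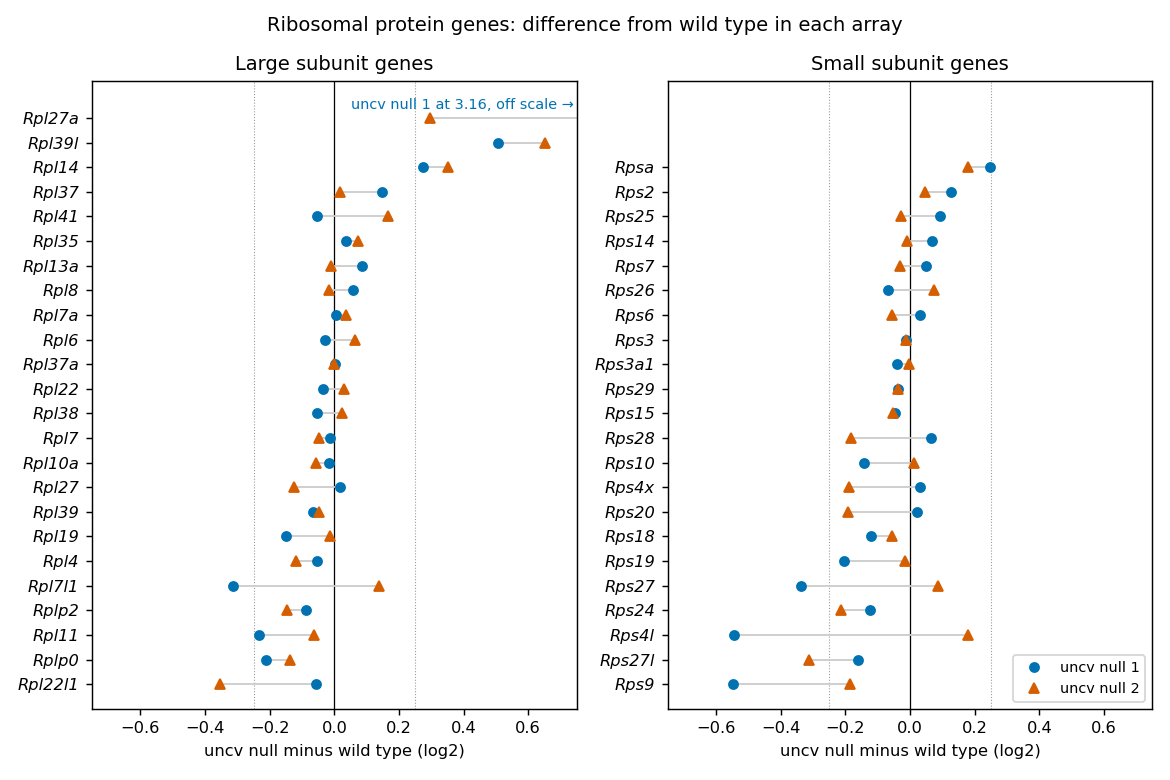
Difference from wild type (log2, horizontal axis) of each of the 46 tested ribosomal protein genes in null 1 (blue circles) and null 2 (orange triangles), large subunit left and small subunit right, ordered by the mean difference; a grey line joins the 2 arrays of a gene and dotted lines mark 0.25 either side of wild type. Most pairs of points lie between the dotted lines, and the null 1 value of Rpl27a, 3.16, is off the scale.

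The members were also set beside genes of like signal. Among the 31 members with a mean of at least 11, every one stayed within 0.25 of wild type in null 1 and in null 2, and the null arrays stayed within 0.25 of each other. Of the 77 other genes that bright, 84.4% were within 0.25 in null 1, 67.5% in null 2, and 81.8% by the mean difference. The standard deviation of the mean differences across genes was 0.077 for the 31 members and 0.22 for the 77 others. Among those 31, 4 lay above wild type in both null arrays (12.9%), 14 below in both (45.2%) and 13 on different sides. Of the 77 others, 42.9% lay above in both and 28.6% below in both. In the 15 members with means from 5 to 11, 11 had a mean difference within 0.25 (73.3%), beside 65.6% of the other genes in that range. By array, 53.3% of these members and 64.4% of the others were within 0.25 in null 1, and 66.7% and 54.3% in null 2. The standard deviation of the mean differences was 0.51 for these members, Rpl27a among them, and 0.34 for the others. The closer values of the members were thus not seen on every measure in this range. How far the upper end of the array's signal range narrows these differences was not tested.

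**Figure D2:**
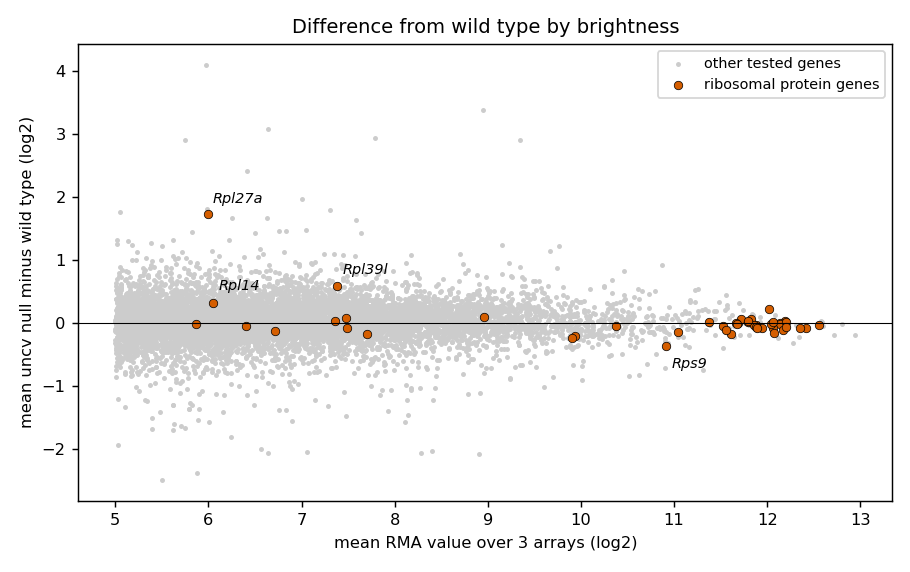
Mean difference of the 2 uncv null arrays from wild type (log2, vertical axis) against the mean RMA value over 3 arrays (log2, horizontal axis) for the 46 tested ribosomal protein genes (orange) and the other tested genes (grey). The 31 members at 11 or above lie between -0.17 and 0.21, and Rpl27a stands at 1.73.

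Both subunit medians lay close to wild type. The large subunit, which forms peptide bonds, had a median difference of -0.0087 over 24 tested genes (-0.022 in null 1, -0.0054 in null 2). Of these 24, 7 lay above wild type in both (29.2%), 9 below in both (37.5%) and 8 on different sides. The small subunit, which reads the messenger RNA, had a median of -0.054 over 22 genes (-0.039 and -0.030). Of these 22, 2 lay above in both (9.1%), 9 below in both (40.9%) and 11 were split. Of all tested genes, 38.8% lay above in both and 26.4% below in both. Several members hardly differed between arrays on their brightest probe set. Rpl37a, a large subunit protein, was at 12.14 in each of the 3 arrays on that probe set. Its other probe sets were lower in null 1, at 12.09, 11.79 and 12.18 on the brighter and at 7.18, 6.92 and 7.14 on the dimmer. Rps3, a small subunit protein at the messenger RNA entry channel that also takes part in DNA repair, was at 12.05 in wild type and 12.04 in each uncv null array. Rps29 was at 12.58, 12.54 and 12.54, and its 2 null arrays lay just below wild type.

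The stalk that recruits elongation factors to the large subunit is built on Rplp0, with Rplp1 and Rplp2 attached. Rplp0 was at 11.72 in wild type, 11.51 in null 1 and 11.59 in null 2, a difference of -0.17 ± 0.26 (limma standard error). Rplp2 was at 12.25, 12.17 and 12.11, a difference of -0.12 ± 0.26. For both stalk genes the null arrays lay below wild type, with mean differences smaller than these standard errors. An intensity trend in the variance model gave standard errors of 0.15 for Rplp0 and 0.14 for Rplp2. The Rplp0 difference was larger than its standard error in that fit. Rpsa, the laminin receptor precursor that sits on the small subunit, was at 11.88, 12.12 and 12.06, a difference of 0.21 ± 0.26. It had the largest positive difference among the members with a mean of at least 11, and both null arrays lay above wild type. With an intensity trend in the variance model its standard error was 0.14 and its unadjusted limma p was 0.17.

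Rps9, a small subunit protein near the decoding centre, had the lowest mean difference of the tested members. It was at 11.16 in wild type, 10.61 in null 1 and 10.97 in null 2, a difference of -0.37 ± 0.28 (limma over all tested genes, unadjusted p = 0.22). Its other probe set past the minimum gave the opposite sign, at 6.56, 6.63 and 6.71. With the mean of its probe sets the difference was -0.058. Rps24, a small subunit protein, was at 12.18, 12.06 and 11.97, a difference of -0.17 ± 0.26, and its 4 probe sets past the minimum all gave negative differences, from -0.40 to -0.15. Rpl11, which with Rpl5 and 5S ribosomal RNA binds and inhibits Mdm2 when ribosome assembly is disturbed, was at 11.14, 10.90 and 11.08, a difference of -0.15 ± 0.26. Both null arrays lay below wild type in these genes, and the lower one was null 1 for Rps9 and Rpl11 and null 2 for Rps24.

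Among the smaller positive differences, Rpl14, a large subunit protein, was at 5.84 in wild type, 6.12 in null 1 and 6.19 in null 2, a difference of 0.31 ± 0.26. Rps2, a small subunit protein at the entry of the messenger RNA channel, was at 8.90, 9.02 and 8.94. Rpl35, which lies by the exit of the peptide tunnel, was at 11.69, 11.72 and 11.76. On these probe sets both null arrays lay above wild type. Rpl37, a large subunit protein, was at 7.42, 7.57 and 7.44, and Rpl41, a very short basic peptide of the ribosome, was at 11.79, 11.74 and 11.95. Rpl41 was above wild type in null 2 alone. On its brightest probe set shared with other loci, Rps2 differed by -0.11 in null 1 and -0.15 in null 2. Rpl37 differed by -0.037 and -0.063 on its brightest shared one. Of the 4 further Rpl35 probe sets past the minimum, 2 had the sign of the brightest.

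Mouse mutants tie 6 ribosomal protein genes to pigment, belly spots or the tail, and 5 of them are members. Rps19 and Rps20 are the genes of dark skin mutants. Rps19 was at 11.63 in wild type, 11.43 in null 1 and 11.61 in null 2, and Rps20 at 12.11, 12.14 and 11.92. The larger difference was in null 1 for Rps19 (-0.20) and in null 2 for Rps20 (-0.19). The mean differences were -0.11 ± 0.26 for Rps19 and -0.085 ± 0.27 for Rps20 (limma standard error). Rps7, whose mutants have pigment and tail defects, was at 12.05, 12.11 and 12.02. Rpl38, the gene of the Tail short mutant, was at 12.15, 12.10 and 12.17. Of the 5 genes, 1 lay above wild type in both null arrays (Rpl27a, the gene of Sooty foot ataxia), 1 below in both (Rps19) and 3 were split. The Rpl27a probe set counted here passed the minimum only through null 1. A brighter one, shared with unnamed loci, was split (-0.015 in null 1 and 0.075 in null 2). The shares of all tested genes were 38.8% above and 26.4% below. The medians of the 5 were 0.023 in null 1 and -0.016 in null 2, with 0 called by limma.

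Diamond-Blackfan anaemia, a human red cell disease, is caused by loss of a copy of any of many ribosomal protein genes. Of 19 such genes listed, 11 were tested here: 1 lay above wild type in both null arrays, 4 below in both and 6 were split. The shares of all tested genes were 38.8% above and 26.4% below. The median difference of the 11 was -0.059 (-0.068 in null 1 and -0.032 in null 2). Rps24, Rpl11, Rps27 and Rps19 had the largest differences. Rps27, a zinc-binding small subunit protein, was at 6.80 in wild type, 6.46 in null 1 and 6.89 in null 2 on its own probe set. A brighter probe set that the annotation gives to Rps27 together with related loci was at 11.95, 12.11 and 11.78, with the order of the null arrays turned round.

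The paralogs are near copies of core proteins often with more restricted expression, and the mean differences of the 5 tested ran from -0.24 to 0.58. Rpl39l, a copy of Rpl39 best known from testis and male germ cells, was at 6.99 in wild type, 7.50 in null 1 and 7.64 in null 2, a difference of 0.58 ± 0.26 (limma adjusted p = 0.99969). Both null arrays lay above wild type, by more than they differed from each other, and no other tested member differed as much in both arrays. Its parent Rpl39, which lines the peptide tunnel, was at 6.44, 6.37 and 6.39 on its own probe set and at 11.81, 11.71 and 11.42 on a probe set shared with other loci, with both null arrays lower on each.

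Rps27l, a copy of Rps27 that p53 induces in human cells, was at 10.07, 9.91 and 9.75, a difference of -0.24 ± 0.26, and its 3 probe sets gave mean differences between -0.24 and -0.19. Rpl22l1, a copy of Rpl22 whose messenger RNA Rpl22 represses in mouse cells, was at 10.08, 10.02 and 9.72, a difference of -0.21 ± 0.27. Rpl22 itself was at 11.69, 11.66 and 11.72. Both null arrays lay below wild type for Rps27l and Rpl22l1. For Rps4l and Rpl7l1 the null arrays fell on different sides: Rps4l was at 7.82, 7.28 and 8.00, and Rpl7l1 at 7.55, 7.23 and 7.68. Rpl3l, which replaces Rpl3 in striated muscle, was at 4.46, 4.32 and 4.85, under the minimum. Over the 5 tested paralogs, 1 lay above wild type in both null arrays, 2 below in both and 2 were split. The shares of all tested genes were 38.8% above and 26.4% below. The medians of the 5 were -0.16 in null 1 and 0.14 in null 2, with 0 called by limma.

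The single value that stood far from the rest was Rpl27a in null 1. Rpl27a is a large subunit protein, and its representative probe set was at 4.84 in wild type, 8.00 in null 1 and 5.14 in null 2. The difference was 3.16 in null 1 and 0.30 in null 2, and the mean of 1.73 had a limma standard error of 0.89 (adjusted p = 0.99969). It passed the minimum only through null 1. A second probe set named for Rpl27a alone was at 3.06, 3.35 and 2.98, and another, annotated with unnamed loci as well, was at 10.95, 10.94 and 11.03. Neither of those differed between arrays by more than 0.37, so the high value was seen on 1 of 3 probe sets. The one at 3.06 in wild type lay under the minimum on every array, so it carries little information on a change.

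The 18S ribosomal RNA control probe sets had the same order of arrays. The one labelled 3′ was at 4.00 in wild type, 8.55 in null 1 and 4.65 in null 2, the one labelled M at 3.52, 8.29 and 4.08, and the one labelled 5′ at 3.25, 6.96 and 4.04. Their mean stood above wild type by 4.34 in null 1 and 0.67 in null 2. Over the same arrays the median level of the 46 tested ribosomal protein genes was 11.71, 11.69 and 11.75. Ribosomal RNA and ribosomal protein messages are made by different polymerases, and the probe sets of the former read an RNA without a poly-A tail.

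Rpl27a ranked first of all 45037 non-control probe sets by how far null 1 lay above the higher of the other 2 arrays, by 2.86 log2 units. Only 14 probe sets exceeded 1.5 in this way, a limit chosen after the values were seen, and 43 did so for null 2. Of the 14, 11 carry a gene name, and 6 of those were not the brightest probe set of their gene. One of them reads Lor, the main protein of the cornified envelope: it was at 3.35, 5.65 and 3.33, while the brightest Lor probe set differed by -0.11 in null 1. For Col1a1, a collagen of the dermis, such a probe set was at 7.48, 9.40 and 7.85, and the brightest one differed by -0.13. Whether the Rpl27a value and the 18S signal share a source was not tested.

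**Figure D3:**
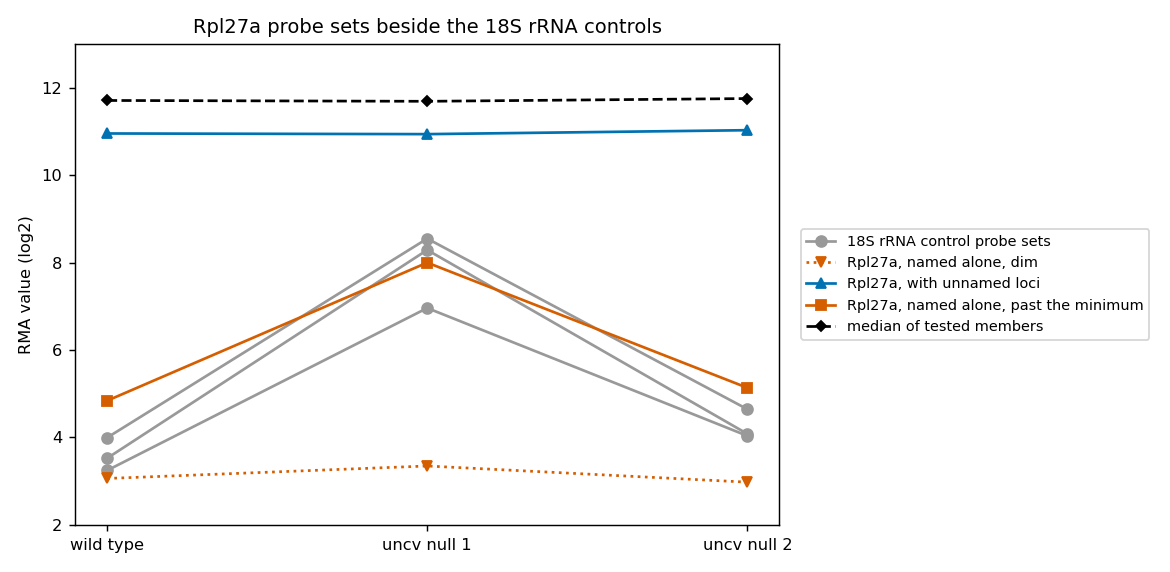
RMA values (log2) in the 3 arrays for the 3 Rpl27a probe sets, the 3 probe sets for 18S ribosomal RNA (grey) and the median of the 46 tested ribosomal protein genes (dashed). The representative Rpl27a probe set and the 18S probe sets peak in null 1, while the Rpl27a probe set shared with unnamed loci stays between 10.94 and 11.03; heights of different probe sets cannot be compared with each other.

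Where a member had several probe sets past the minimum, they could be set beside each other. This held for 20 genes, and 27 of their 40 further probe sets had the sign of the brightest. The median spread of the mean difference between probe sets of 1 gene was 0.13. It was widest for Rpl22, from -0.49 to -0.0036, then for Rps9, from -0.37 to 0.10. For Rpl13a, a large subunit protein that also represses translation after interferon gamma, it ran from -0.37 to 0.037, and for Rpl41 from -0.17 to 0.18. The spread runs from the lowest to the highest probe set of a gene. It cannot be set directly against 0.062, the median size of the mean differences of all tested members. The 40 further probe sets had a median difference of -0.076 (-0.061 in null 1 and -0.058 in null 2), with 6 above wild type in both null arrays and 19 below in both.

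Many ribosomal protein genes have processed pseudogenes with nearly the same sequence, and probe sets annotated to several loci were not members. There were 103 such probe sets for 39 genes, and 24 of the genes had no probe set of their own. These 24 also lay near wild type: the median difference was -0.037 (0.0053 in null 1 and -0.014 in null 2), and the range was -0.15 to 0.12. In both null arrays 7 lay above wild type and 8 below, where the shares of all tested genes were 38.8% and 26.4%. Rpl24, the gene of the Belly spot and tail mutant, was among the 24, at 11.62 in wild type, 11.40 in null 1 and 11.54 in null 2. The signals of a gene and its copies cannot be told apart on these probe sets.

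Shared probe sets also filled in members with a dim probe set of their own. Rps16, a small subunit protein, was at 2.37, 2.09 and 2.10 on its own probe set, under the minimum, and at 12.48, 12.45 and 12.43 on its brightest shared one. Rpl12, a large subunit protein near the stalk base, was at 4.64, 4.50 and 4.14 on its own, and at 11.16, 10.93 and 11.27 on its brightest shared one. Rps6, the small subunit protein that S6 kinases phosphorylate, was at 5.87, 5.90 and 5.82 on its own, and at 12.69, 12.73 and 12.78 on its brightest shared one. For Rpl14 the 4 brightest shared probe sets gave positive differences, from 0.11 to 0.18, and the dimmest gave -0.37.

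Other genes of the translation machinery were read from lists of known members, to be read against the shares over all 8456 tested genes, 38.8% above in both null arrays and 26.4% below in both. Among the elongation factors, which feed the ribosome and move it along, 0 of 6 lay above wild type in both and 4 below in both. The median of the 6 was -0.083, with -0.097 in null 1 and -0.040 in null 2. One of the 4 below was Eef2, at 11.13 in each array. Also among the 4 was Eef1e1, an auxiliary factor of the tRNA synthetase complex, at 7.68, 7.43 and 7.50. Fau, whose product is cut into a ubiquitin-like protein and ribosomal protein eS30, was at 11.93, 11.61 and 11.87. Tested messages known to carry a TOP tract, outside the members, numbered 16, with Fau and elongation factors such as Eef2 counted again. Of these 16, 2 lay above in both and 6 below in both. Their median was -0.11 in null 1 and 0.015 in null 2, with Tpt1, a growth-related protein, at 13.07, 12.91 and 12.86. Initiation factors had 13 of 31 above in both and 4 below, with medians of -0.021 and 0.077 in the same order. Among them were Eif1a, a scanning factor, at 7.17, 7.45 and 7.61 and the helicase Eif4a2 at 9.22, 9.08 and 8.65.

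Genes that build the ribosome were mixed. Of 45 tested ribosome biogenesis genes, 14 lay above wild type in both null arrays, 15 below in both and 16 were split, and the medians were -0.053 in null 1 and 0.070 in null 2, on opposite sides of wild type. Heatr1, a factor of early pre-ribosomal RNA processing, was at 5.91, 6.52 and 6.37, and nucleolin (Ncl), an abundant nucleolar protein, at 10.20, 9.81 and 9.85, so both null arrays were above wild type for Heatr1 and below it for Ncl. RNA polymerase I and its regulators had medians of -0.014 in null 1 and 0.15 in null 2 over 11 genes, with the initiation factor Rrn3 at 6.66, 6.40 and 6.33. Small nucleolar RNA hosts had medians of -0.015 and -0.068 over 7 genes, and Gas5, a TOP message that holds guide RNAs for ribosomal RNA methylation in its introns, was at 9.95, 9.17 and 9.76. Limma called 0 genes in each of these lists.

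Upstream of translation, 9 of 13 genes of the TOR pathway lay above wild type in both null arrays and 0 below in both. The shares of all tested genes were 38.8% and 26.4%. The list holds both partners and inhibitors of TOR, so this count gives no direction of pathway activity. How the count moves with the scaling was not tested. The medians of the list were 0.10 in null 1 and 0.15 in null 2, beside 0.025 and 0.066 for all tested genes, with the TOR inhibitor Ddit4 at 8.03, 8.56 and 8.11 and the TOR partner Rptor at 5.73, 6.10 and 5.91. Targets of p53, which disturbed ribosome assembly can activate, had 5 of 9 above and 1 below, with medians of 0.046 and 0.12: Zmat3 was at 6.33, 6.64 and 6.72, and Mdm2 at 5.82, 4.92 and 5.94. Mitochondrial ribosomal proteins, which serve a separate ribosome, had a median of 0.015 over 76 genes, but -0.12 in null 1 and 0.11 in null 2, and 43 of the 76 were split. Mrpl54 was lowest of them, at 6.78, 5.63 and 6.31. Limma called 0 genes in these lists too.

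Several lists of cell type markers had medians farther from 0 than the ribosomal protein genes on the same arrays, with 0 markers called by limma. Skeletal muscle markers had a median of -0.54 in null 1 and -0.86 in null 2 over 6 genes, 5 of them below wild type in both, with Mylpf, a muscle myosin light chain, at 11.18, 10.38 and 10.31. Adipocyte markers had medians of 0.49 and 0.97 over 4 genes, all above wild type in both, with the hormone gene Adipoq at 9.88, 10.42 and 10.70. Fibroblast markers were at -0.089 and -0.43 over 6 genes, all below in both, and keratinocyte markers at -0.049 and 0.18 over 7. Macrophage markers were at 0.12 and 0.42 over 6, with 4 above in both. The medians of both ribosomal subunits lay between -0.039 and -0.0054 in the same 2 arrays. The part of cell makeup in any ribosomal protein value was not tested.

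**Figure D4:**
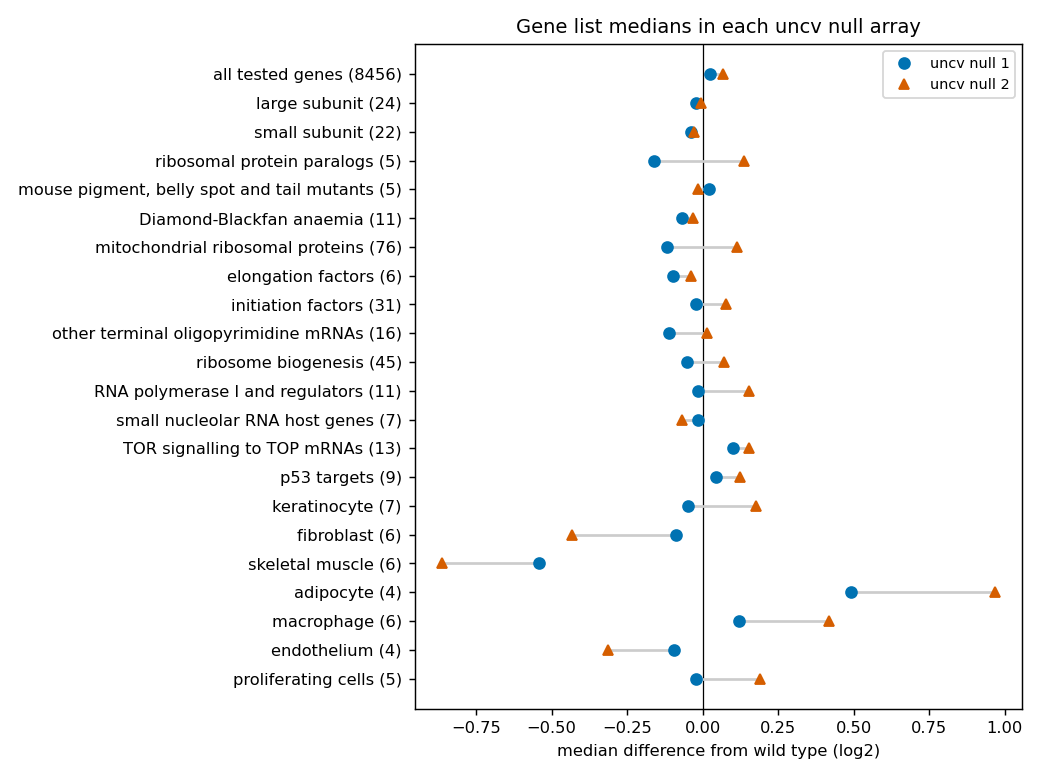
Median difference from wild type (log2, horizontal axis) of each gene list in null 1 (blue circles) and null 2 (orange triangles), with the number of tested genes in brackets; a grey line joins the 2 arrays. The 2 ribosomal subunits lie between -0.039 and -0.0054, while muscle markers reach -0.86 and adipocyte markers 0.97.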

How the data were processed

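Total RNA of dorsal skin was read on 1 array per sample. The authors deposited log2 values made with RMA, as the submitters' processing notes say. RMA brings the arrays to a common intensity distribution, so a shift of all transcripts together cannot be seen. Which software and background model ran it is not given in the sources used here. The extraction reagent differs between the labels' protocols and the series' design text. No scanner files were used, so detection calls are not given, and the number of arrays limits the precision.

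Probe sets were named through the platform annotation: 34945 of 45101 carry 1 gene symbol, 932 several, 9160 none, and 64 are controls. Differences are uncv null minus wild type, tested over 8456 genes by eBayes without trend (limma 3.58.1, R 4.3.3; Benjamini-Hochberg, threshold 0.05). A single wild type array leaves 1 residual degree of freedom, moderated with 7.57 prior degrees of freedom, so most standard errors lie near 0.26. The fit was tested on simulated data, and its estimates followed the changes put in. In most runs the adjusted test called few or none of these changes. The simulated variance was on average larger than that between the null arrays, so these runs do not give the power of the real fit. A lack of calls with 1 wild type array still does not show equal levels.

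The members and all lists were chosen with earlier results of these data known. Named members were those with the 8 largest positive and 8 largest negative mean differences, the 6 largest differences shared by both null arrays in each direction, the 6 with the widest gap between null arrays, the short lists in full, the 4 largest of the Diamond-Blackfan list and the 4 whose probe sets disagree most. Rpl37a, Rps3, Rps29, Rps6, Rpl39 and the genes of shared probe sets other than these were named after their values were seen. Start sequences are from RefSeq, build GRCm38.p6. Protein sequences were not used here. Alternatives were other filters, probe set rules, scalings and variance models, and leaving out each uncv null array.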

Additional observations from a re-analysis of the deposited data

How the results depend on the processing

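Of 80 recomputed values, 51 stayed within the limits set for a change, 29 moved and 0 reversed a call, since none was made. The limits were 1.5 times for a count and 1 standard deviation between null arrays for a median or the 18S mean. Many of those that stayed were counts of 0 that remained 0. The 18S mean of 2.51 became 0.67 or 4.34 with a null array left out. These were counted as unchanged, because a limit of 2.60 is wider than such a shift can be. Limma called 0 members under every setting in which it was run, and 0 genes in all except with cyclic loess, which called 11, none of them a member. The median member difference of -0.033 became -0.092 with median centring and -0.0037 with cyclic loess, and ran from -0.033 to -0.015 leaving out a null array. The large subunit median of -0.0087 became -0.057 with the mean of probe sets, -0.038 with probe sets without a suffix, -0.067 with median centring, 0.026 with cyclic loess and -0.031 with shared probe sets, and ran from -0.022 to -0.0054 leaving out a null array. The small subunit median of -0.054 became -0.031, -0.013, -0.113, -0.028 and -0.047 under the same settings in that order, and -0.044 without the paralogs, and it ran from -0.039 to -0.030 leaving out a null array. The 9 members above wild type in both null arrays became 4 with probe sets without a suffix, where only 16 genes were tested, 4 with median centring and 14 with shared probe sets, where 72 were tested. The 18 below in both became 4, 28 and 30 under the same settings, and 11 with cyclic loess. With 1 null array left out, 18 to 19 members lay above and 27 to 28 below, since 1 array then decides. Members 2-fold from wild type were 0, or 1 without uncv null 2, which is Rpl27a. The cause of the shifts with scaling was not tested. Shared probe sets, leaving out Rpl27a and the fit over all probe sets were added after seeing the data. Leaving out the lone wild type array leaves no comparison, and with 1 null array there are no residual degrees of freedom and no limma test. No paired analysis was possible because the wild type group has 1 array and its labels give no replicate number.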
